A study of Homo sapiens with 18 samples.

Results

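The clustered protocadherins are cell adhesion proteins encoded by 53 protein-coding genes in 3 neighbouring subclusters, PCDHA, PCDHB and PCDHG, on the long arm of chromosome 5. In PCDHA and PCDHG each gene starts with its own large variable exon, which encodes the extracellular cadherin repeats and is spliced to constant exons shared by the subcluster, whereas the PCDHB genes have no shared exons. In neurons, single cells are known to use different promoters of the clusters, so that neighbouring cells carry different surface proteins, while the C-type genes at the end of the PCDHA and PCDHG arrays (PCDHAC1, PCDHAC2, PCDHGC3, PCDHGC4 and PCDHGC5) are used more broadly. The promoters are known to be controlled by DNA methylation and by the looping factor CTCF with cohesin.

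Accessibility of these genes was examined by ATAC-seq, in which the transposase Tn5 cuts open chromatin, in 6 established ovarian cancer cell lines with 3 libraries each. A2780 is a sensitive line and CP70 is its platinum-resistant derivative selected in vitro, and the labels give this pair as endometrial or ovarian. PEA1 (sensitive) and PEA2 (resistant) came from ascites of 1 patient with high-grade serous ovarian cancer before chemotherapy and after relapse. PEO1 (sensitive) and PEO4 (resistant) came from another such patient before and after clinical resistance, both after platinum-based chemotherapy had been given. A difference within a pair belongs to those lines, which are single examples of each state. The labels do not say whether the 3 libraries of a line came from separate cultures, and p-values measure only the spread between these libraries.

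The values were FPKM, the reads in a window per kilobase scaled to the reads of the library, in windows of 1 kb on hg19 (GRCh37). All windows have the same length, so levels can be compared between windows per length. The table held 89428 windows, of which 49 lay in the stretch of chromosome 5 that holds the clusters. Of these, 31 overlapped a clustered protocadherin gene or the 1 kb before its start, 11 in PCDHA (genes at chr5:140165721-140391932), 6 in PCDHB (chr5:140430959-140628933) and 14 in PCDHG (chr5:140710081-140892544), and they are described here. The other 18 lay outside the genes. Of the 31 windows, 17 were at promoters, 6 in variable first exons, 2 at the last constant exon of PCDHG and 6 in introns or gaps between variable exons. Adjacent windows share 101 bases and are not independent.

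A window over the gene start was present for 14 of the 53 genes (26.4%), against 13738 of 20110 other protein-coding genes (68.3%). The share was alike in the subclusters, with 4 of 15 PCDHA genes (PCDHA12, PCDHA13, PCDHAC1 and PCDHAC2), 4 of 16 PCDHB genes (PCDHB1, PCDHB2, PCDHB8 and PCDHB11) and 6 of 22 PCDHG genes (PCDHGB1, PCDHGA7, PCDHGB4, PCDHGB7, PCDHGC3 and PCDHGC5). Among the 5 C-type genes only PCDHGC4 had no start window. Each window that was deposited had a value over 2 FPKM in 2 or more of the 18 libraries, and starts without a window were not analysed here. Of the 31 members, 8 had such values in 1 line alone, PCDHA13 and 2 first exon windows of PCDHB8 in PEA1, PCDHGC5, PCDHGB7, the first exon of PCDHGA1 and the window before PCDHAC1 in PEO1, and a window of the last PCDHG exon in PEA2. If that is how windows were selected, these are in the table through that line alone, so no p-value is given for their difference from it. The authors kept uniquely aligned reads, and the loss of reads in stretches that are repeated between these similar genes was not tested.

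The promoter sequences are shown because genes of 1 subcluster share a short stretch close to their starts. CGCT is the core of the conserved sequence element of these promoters, which CTCF is known to bind. In the 300 bases from 250 before to 50 after each gene start (GRCh37 genome, starts of GENCODE release 44), CGCT occurred on either strand in 51 of 53 clustered promoters (96.2%) and in 82.1% of 20079 promoters of other protein-coding genes. The median G and C content was 39.7% and 63.7%. CCCTC occurred on either strand in 26.4% of the clustered promoters and 77.3% of the others, and TATAAA in 22.6% and 9.77%. The stretches of 64 bases below are those of the 9 genes, of the 14 with a start window, whose promoter held a longer string around CGCT found in its subcluster (TGTCGCTCT in PCDHA, GCGCTGCAG in PCDHB or GCCGCTGT in PCDHG). They are aligned on that string, whose CGCT is in capitals, and any further CGCT is in lower case.
PCDHA12 (chr5:140254819-140254882, plus strand): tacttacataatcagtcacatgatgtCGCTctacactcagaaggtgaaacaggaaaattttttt
PCDHA13 (chr5:140261637-140261700, plus strand): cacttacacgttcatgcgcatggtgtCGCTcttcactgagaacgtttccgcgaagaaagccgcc
PCDHB2 (chr5:140474119-140474182, plus strand): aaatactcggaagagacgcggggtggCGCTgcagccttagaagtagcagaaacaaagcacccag
PCDHB8 (chr5:140557348-140557411, plus strand): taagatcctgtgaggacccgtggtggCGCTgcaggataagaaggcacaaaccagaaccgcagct
PCDHB11 (chr5:140579093-140579156, plus strand): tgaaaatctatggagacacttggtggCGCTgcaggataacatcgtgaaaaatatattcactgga
PCDHGB1 (chr5:140729582-140729645, plus strand): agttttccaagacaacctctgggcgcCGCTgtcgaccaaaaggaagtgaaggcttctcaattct
PCDHGA7 (chr5:140762206-140762269, plus strand): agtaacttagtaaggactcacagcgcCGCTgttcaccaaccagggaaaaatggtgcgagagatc
PCDHGB4 (chr5:140767174-140767237, plus strand): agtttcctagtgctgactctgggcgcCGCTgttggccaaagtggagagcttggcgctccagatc
PCDHGC3 (chr5:140855437-140855500, plus strand): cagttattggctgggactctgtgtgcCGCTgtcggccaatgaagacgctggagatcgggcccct

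Some strings around the core were found in a single subcluster, and others were shared, such as TGTCGCTGT in PCDHA1 and PCDHGA3. TGTCGCTCT was found in 5 of 15 PCDHA promoters, GCGCTGCAG in 11 of 16 PCDHB promoters and GCCGCTGT in 12 of 22 PCDHG promoters, and each was found in 0 promoters of the other subclusters. These 3 strings overlap CGCT, were chosen after the sequences were read, were searched on both strands, and stood in 0.154%, 1.15% and 2.01% of the promoters of other protein-coding genes. GCGCTGCAG was present in 3 of the 14 genes with a start window (21.4%) and in 8 of the 39 without one (20.5%), and GCCGCTGT in 28.6% and 20.5%. The 64 bases of PCDHB8 and PCDHB13 were identical at 63 positions, as were those of PCDHGB4 and PCDHGB5, although PCDHB13 and PCDHGB5 had no start window. A match is a description of the letters and not of a bound site.

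The promoters of the 5 C-type genes had a median of 60.7% G and C, against 38.7% for the other 48 clustered genes. CCCTC stood in 80.0% of C-type promoters and 20.8% of the others, against 77.3% of the promoters of other protein-coding genes. PCDHAC1 held CGCT or its complement AGCG at 6 places, as did PCDHGC3, PCDHGB4 and PCDHGB5, the last without a start window. PCDHAC2 held 4 and PCDHGC5 0, so the count did not follow how open a start was. The promoter of PCDHAC1 is shown in full, with these letters in capitals.
PCDHAC1 (chr5:140305634-140305933, plus strand): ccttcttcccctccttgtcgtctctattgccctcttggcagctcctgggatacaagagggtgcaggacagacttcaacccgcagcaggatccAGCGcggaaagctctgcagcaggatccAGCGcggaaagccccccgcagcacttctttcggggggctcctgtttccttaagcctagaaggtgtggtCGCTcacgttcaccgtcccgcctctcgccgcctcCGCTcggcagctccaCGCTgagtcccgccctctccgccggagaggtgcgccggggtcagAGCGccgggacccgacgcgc

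PCDHAC1, PCDHAC2 and PCDHGC3 were the most open starts of the clusters in each line but A2780, where PCDHB2 ranked between PCDHGC3 and PCDHAC2. PCDHAC1 (chr5:140305500-140306500) held 7.39, 8.29 and 6.69 FPKM in PEO1, 3.95, 4.61 and 4.58 in PEO4, 7.11, 7.23 and 5.99 in PEA1, 6.43, 5.2 and 5.59 in PEA2, 1.92, 2.37 and 2.18 in A2780, and 5.45, 5.09 and 4.4 in CP70. Each A2780 library was below every library of the other 5 lines, and neighbours in the order of the other 5 line means overlapped. The order depended on the scale, because the libraries differ in how many of their reads lie in the windows of the table. Divided by the median window of the library, PCDHAC1 was lowest in PEO4 (1.94 times that median) and highest in CP70 (5.96), with A2780 at 3.17. PCDHAC2 (chr5:140346000-140347000) held 6.98, 7.77 and 6.8 FPKM in PEO1, 4.42, 3.84 and 3.69 in PEO4, 6.47, 6.01 and 4.32 in PEA1, 5.55, 5.09 and 5.01 in PEA2, 1.22, 1.35 and 1.26 in A2780, and 2.73, 2.1 and 1.97 in CP70. PEA1 and PEA2 overlapped, and all other neighbours in the order PEO1, PEA1, PEA2, PEO4, CP70 and A2780 were apart. Over the library median the order was PEA1, PEA2, CP70, PEO1, A2780 and PEO4, from 4.62 to 1.77. PCDHGC3 (chr5:140855400-140856400) averaged 8.76 ± 0.376 FPKM in PEO1 (SD, n = 3), 5.92 ± 1.1 in PEO4, 5.48 ± 1.47 in PEA1, 5.32 ± 0.604 in PEA2, 1.83 ± 0.209 in A2780 and 2.96 ± 0.92 in CP70. Its libraries overlapped between PEO4 and PEA1 and between PEA1 and PEA2, and the other neighbours in its order were apart, whereas over the library median all neighbours overlapped, from 2.62 in PEO4 to 4.51 in PEA1.

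**Figure D1:**
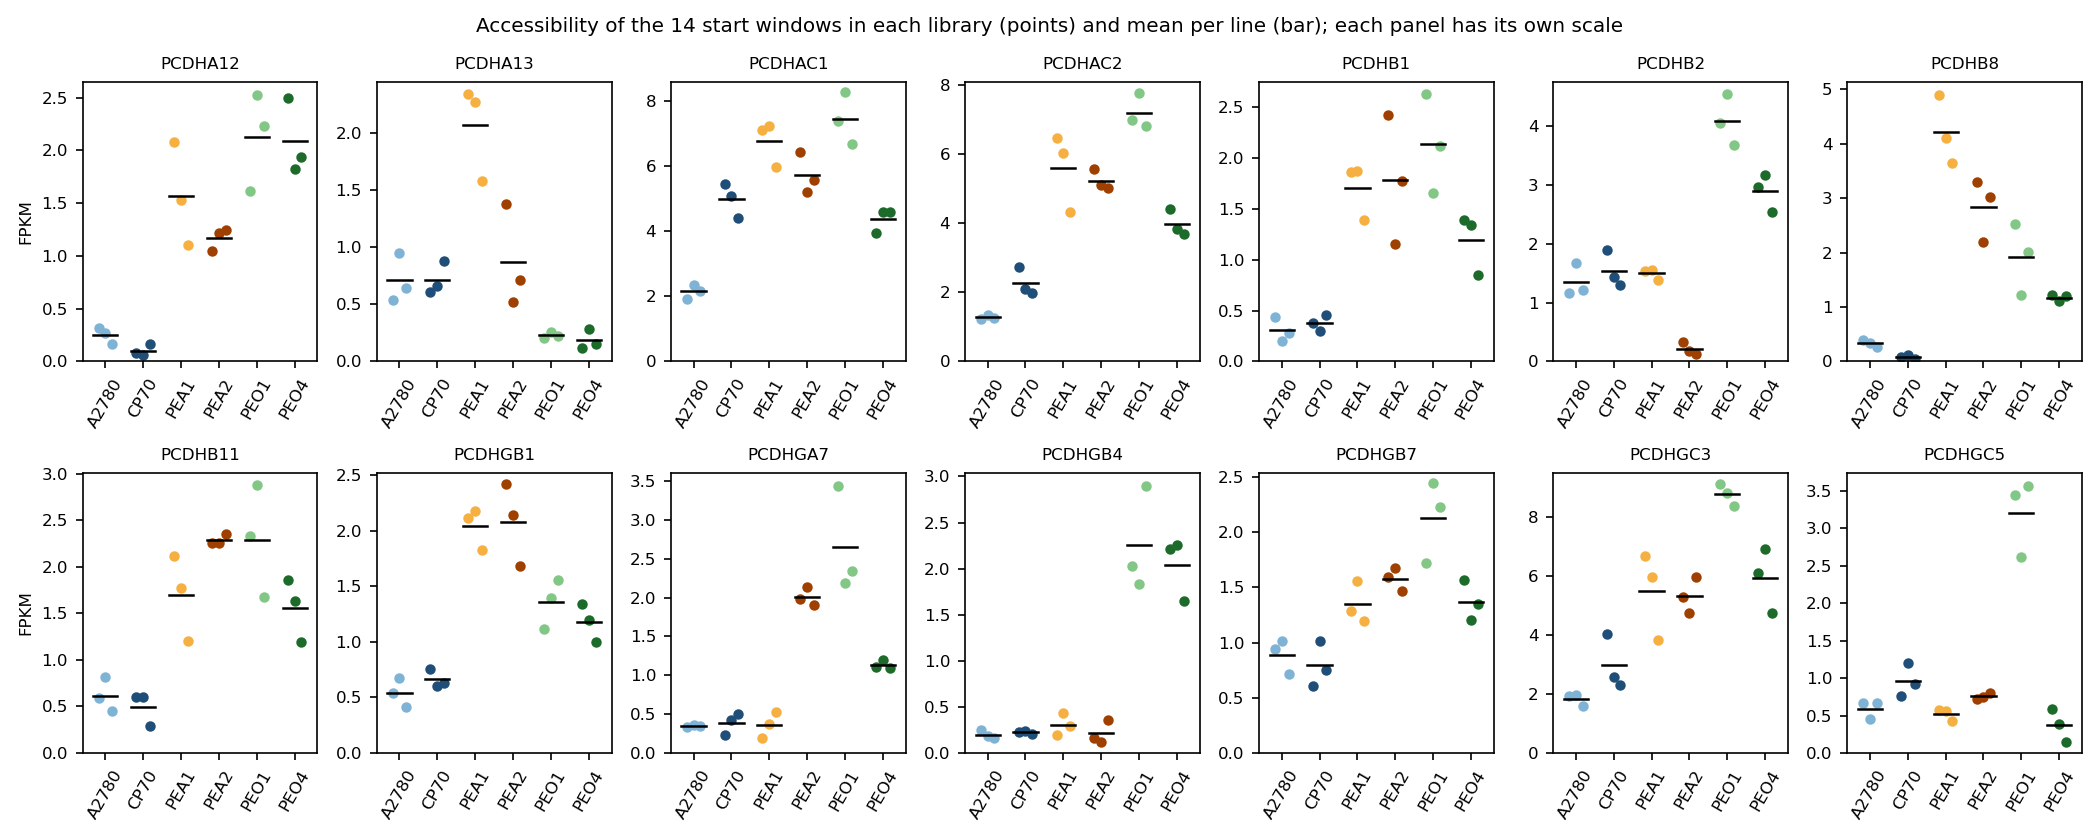
FPKM (y axis, a scale of its own in each panel) of the 14 start windows in the 3 libraries of each line (points), with the line mean as a bar. PCDHGC5 is above 2 FPKM in PEO1 alone, PCDHGB4 is above 1 FPKM in PEO1 and PEO4 alone, and PCDHB2 is lowest in PEA2.

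The other starts were mostly below 1 FPKM in A2780 and CP70. Of the 10 start windows of genes that are not C-type, 9 had a mean above 1 FPKM in PEO1 and in PEO4, 8 in PEA1, 7 in PEA2 and 1 in A2780 and in CP70. The count with a mean above the median window of the library was 1 in PEO1 and in PEO4, 8 in PEA1, 5 in PEA2, 3 in A2780 and 1 in CP70, so the PEO lines had the most open starts on the deposited scale and few on the other. The ratio of the highest to the lowest line mean had a median of 9.43 over these 10 windows (2.69 to 53.3), of 5.21 over the 4 C-type starts (3.46 to 8.63) and of 7.06 over all windows of the table. After each value was divided by the median window of its library, the medians were 5.6, 2.84 and 4.66. These ratios are descriptions of few windows.

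In PCDHA, PCDHA12 (chr5:140254200-140255200) averaged 2.13 ± 0.464 FPKM in PEO1, 2.09 ± 0.361 in PEO4, 1.57 ± 0.491 in PEA1 and 1.17 ± 0.107 in PEA2, with overlap between these neighbours. It averaged 0.25 ± 0.0764 in A2780 and 0.101 ± 0.0581 in CP70, below every library of the 4 serous lines on both scales. The share of the library's reads was 2.21 times as high in A2780 as in CP70, with a 95% interval of 0.931 to 6.38. The interval covers counting error only, and by it no difference between those lines was detectable at this depth. Over the library median, however, every A2780 library was above those of CP70, with means of 0.362 and 0.121. PCDHA13 (chr5:140261400-140262400), the next gene, had another pattern. It held 2.34, 2.27 and 1.58 FPKM in PEA1, 1.37, 0.52 and 0.71 in PEA2, 0.541, 0.946 and 0.645 in A2780, 0.606, 0.658 and 0.879 in CP70, 0.202, 0.262 and 0.223 in PEO1 and 0.116, 0.288 and 0.149 in PEO4. All PEA1 libraries were above, and all PEO1 and PEO4 libraries below, those of the other lines, on both scales.

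In PCDHB, the start of PCDHB8 (chr5:140556600-140557600) had the largest ratio of the highest to the lowest line mean among the 31 windows. It held 4.9, 4.11 and 3.64 FPKM in PEA1, 3.3, 2.2 and 3.02 in PEA2, 2.53, 1.22 and 2.01 in PEO1, 1.22, 1.1 and 1.2 in PEO4, 0.401, 0.338 and 0.264 in A2780, and 0.0758, 0.12 and 0.0419 in CP70. PEA2 and PEO1 overlapped, and all other neighbours in this order were apart. Over the library median the order was the same, with PEO4 overlapping PEO1 and A2780. A CP70 library held 1 or 2 reads there, 4 in all against 54 in A2780, a ratio of A2780 to CP70 of 4.48 (95% interval 1.65 to 17). A window in the first exon of PCDHB8 (chr5:140558400-140559400) averaged 2.83 ± 0.265 FPKM in PEA1, 0.799 ± 0.0851 in PEA2 (2.38 and 0.457 times the library median) and 0.226 to 0.397 in the other 4 lines, of which A2780 and CP70 had higher means than PEA2 over the library median. PCDHB2 (chr5:140473800-140474800) held 0.33, 0.173 and 0.133 FPKM in PEA2, 1.54, 1.56 and 1.39 in PEA1, 1.17, 1.67 and 1.21 in A2780, 1.89, 1.44 and 1.3 in CP70, 2.96, 3.17 and 2.54 in PEO4 and 4.05, 4.54 and 3.68 in PEO1. PEA2 was below all other lines on both scales. PEO1 was above all others as deposited, with overlap among A2780, CP70 and PEA1, but over the library median PEO1, at 1.43, came after A2780 at 1.98 and CP70 at 1.85 and overlapped CP70. PCDHB1 and PCDHB11 had line means of 0.307 to 2.14 and 0.499 to 2.29 FPKM, and in both the A2780 and CP70 libraries were below those of the 4 serous lines as deposited. Neither separation held over the library median, where the A2780 mean was above those of both PEO lines at PCDHB11 (0.901, against 0.798 in PEO1 and 0.692 in PEO4).

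In PCDHG, PCDHGB4 (chr5:140767200-140768200) was highest in the PEO pair, with 2.02, 1.83 and 2.9 FPKM in PEO1 and 2.21, 2.26 and 1.64 in PEO4. PEO1 and PEO4 were at 0.789 and 0.903 times the library median, so below the median window. The other 4 lines had means of 0.197 to 0.305 FPKM, and no library of theirs reached those of the PEO lines on either scale. A window at the first exon of PCDHGA1 (chr5:140713200-140714200) was also highest in the PEO pair, with means of 2.23 ± 0.305 and 1.67 ± 0.117 FPKM, against 0.187 to 0.243 in the other 4 lines, with the PEO libraries apart on both scales. PCDHGA7 (chr5:140761800-140762800) held 3.44, 2.18 and 2.34 FPKM in PEO1, 1.98, 2.14 and 1.91 in PEA2 and 1.1, 1.2 and 1.1 in PEO4, and averaged 0.346 to 0.383 in A2780, CP70 and PEA1. Over the library median PEA2 and PEO1 were still the highest, at 1.15 and 0.923, but PEO4, at 0.503, overlapped A2780 and CP70. PCDHGC5 (chr5:140868000-140869000), a C-type gene, held 3.44, 2.62 and 3.57 FPKM in PEO1 and 0.581, 0.384 and 0.149 in PEO4, with means of 0.523 to 0.959 in the other 4 lines. As deposited, PEO1 was above every other line at PCDHGC5. Over the library median CP70 was first, at 1.15, and overlapped PEO1, at 1.12, which overlapped A2780, and every PEO4 library was below those of the other lines. PCDHGB1 and PCDHGB7 varied less, with line means of 0.543 to 2.08 and 0.793 to 2.13 FPKM.

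Between the second and the last constant exon of PCDHA, 3 intron windows had means above 1 FPKM in PEA2, PEO1 and PEO4. The first (chr5:140381100-140382100) averaged 3.58 ± 0.211 FPKM in PEO1, 1.36 ± 0.145 in PEO4, 2.8 ± 1.03 in PEA1 and 3.31 ± 0.629 in PEA2. The second (chr5:140382900-140383900) held 6.17, 6.63 and 5.68 FPKM in PEO1, 3.26, 3.5 and 4.08 in PEO4, 0.961, 1.15 and 0.432 in PEA1 and 4.29, 3.29 and 3.95 in PEA2. The last (chr5:140383800-140384800), which shares 101 bases with the second, averaged 8.8 ± 0.933, 4.87 ± 0.456, 1.62 ± 0.0731 and 5.67 ± 1.07 FPKM in the same lines and was the highest member window of PEO1. In all 3 windows every A2780 and CP70 library was below 1 FPKM. Over the library median the first window was lowest in PEO4, at 0.604, against 0.732 in A2780 and 0.859 in CP70. In the second and the last window PEA2 then had the highest mean and overlapped PEO1, and A2780 and CP70 had the lowest means. A window in the gap between PCDHA13 and PCDHAC1 (chr5:140295600-140296600) held 2.33, 1.57 and 3.12 FPKM in PEO1, above every library of the other 5 lines, whose means were 0.463 to 0.705 FPKM. Over the library median PEO1 and CP70 overlapped there, at 0.82 and 0.797.

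In PCDHG, a window between the second and the last constant exon (chr5:140887800-140888800) averaged 6.67 ± 1.53 FPKM in PEO1, 5.92 ± 0.359 in PEO4, 5.67 ± 0.853 in PEA1 and 5.32 ± 0.567 in PEA2, with overlap between neighbours. A2780 and CP70 were lower there, at 0.854 ± 0.197 and 1.25 ± 0.304 FPKM, although over the library median CP70 overlapped PEO1. The window over the end of the last PCDHG exon (chr5:140892300-140893300), which reaches past the gene, varied least of the 31 as deposited, with means from 2.34 FPKM in A2780 to 3.66 in PEA1 and overlap between all neighbours, and was the highest member window of A2780. Over the library median it ran from 0.997 in PEO1 to 3.42 in A2780, a ratio of 3.43, and the window before the start of PCDHGC3 had the smallest ratio, 1.47.

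**Figure D2:**
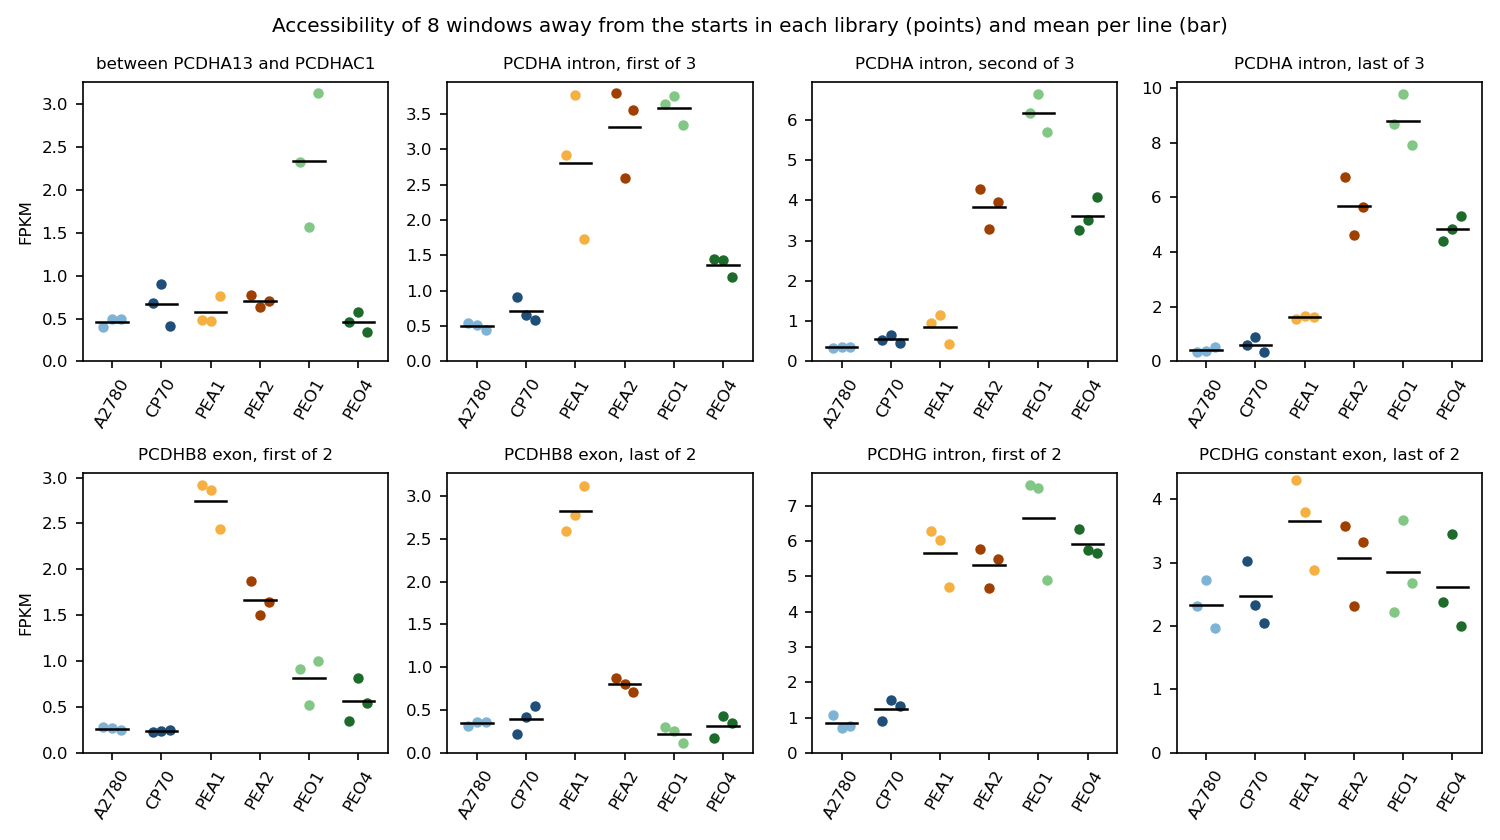
FPKM (y axis, a scale of its own in each panel) of 8 member windows away from the gene starts in the 3 libraries of each line (points), with the line mean as a bar. The last 2 of the 3 PCDHA intron windows are lower in PEA1 than in PEA2, PEO1 and PEO4, and the window at the end of PCDHG has line means of 2.34 to 3.66 FPKM.

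The order of the lines over a whole subcluster depended on the scale. The 11 PCDHA windows averaged 4.19 ± 0.293 FPKM in PEO1, 2.48 ± 0.0366 in PEO4, 2.86 ± 0.464 in PEA1, 3.15 ± 0.354 in PEA2, 0.753 ± 0.0475 in A2780 and 1.27 ± 0.158 in CP70. In the same order of lines, the 6 PCDHB windows averaged 1.91 ± 0.189, 1.29 ± 0.156, 2.45 ± 0.231, 1.6 ± 0.246, 0.536 ± 0.0701 and 0.523 ± 0.0434 FPKM, and the 14 PCDHG windows averaged 3.57 ± 0.241, 2.49 ± 0.304, 2.15 ± 0.38, 2.49 ± 0.151, 0.87 ± 0.0751 and 1.1 ± 0.0914 FPKM. PEO1 had the highest mean in PCDHA and PCDHG, and PEA1 in PCDHB. The library totals were 8963079 to 60435027 reads, and the share of reads inside the windows of the table differed between the lines, from 9.25% ± 0.816 in A2780 to 39.9% ± 0.95 in PEO1. Divided by the median window of the library, the means were highest in PEA1, at 2.36 ± 0.156 for PCDHA, 2.04 ± 0.117 for PCDHB and 1.77 ± 0.147 for PCDHG, and lowest in PEO4, at 1.1 ± 0.0221, 0.57 ± 0.0671 and 1.11 ± 0.13 times that median. A2780 was within the spread of PEO4 in PCDHA on this scale, at 1.1 ± 0.12.

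**Figure D3:**
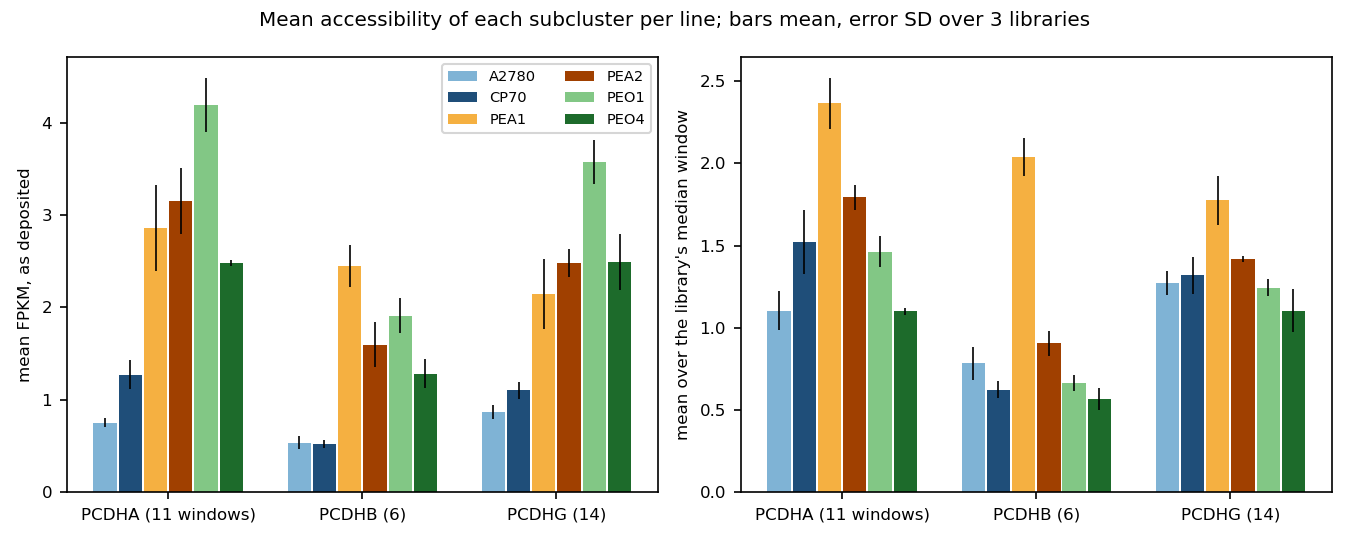
Mean over the windows of each subcluster in each line, as deposited (left, FPKM) and divided by the median window of the library (right, a ratio), with the SD over 3 libraries as error bars. PEO1 is highest in PCDHA and PCDHG on the left, and PEA1 is highest in all 3 subclusters on the right.

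The resistant line of each pair was then compared with its sensitive line by limma on log2(FPKM + 0.1), a scale that understates changes of low windows, over all windows with a mean above 1 FPKM in the pair. A window was called at an absolute log2 fold change over 2 with an adjusted p under 0.001, the thresholds of the study's methods, and by direction at an adjusted p under 0.05. The scaling matters here, because the median over all windows tested was not 0, and values relative to that median are given beside the deposited scale as median-centred.

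Between A2780 and CP70, the start windows of PCDHAC1, PCDHAC2 and PCDHGC3 were higher in CP70 as deposited. Of the 31 members, 11 passed the minimum and 0 met the strict thresholds by limma, where 0.797% of all windows tested did. At an adjusted p under 0.05, 5 were higher (45.5%, against 47.5% of all windows) and 0 lower (against 2.29%) by limma. At an unadjusted p under 0.05, 5 were higher and 0 lower, and edgeR called 1 higher, 1 lower and 0 at the strict thresholds. The higher count was 3 without replicate 2 or replicate 3 of A2780. The libraries of the lines were apart in 6 members (54.5%), against 59.0%, so neither share was above the background. The median log2 fold change was 0.49 for the members and 0.59 for all windows. PCDHAC1 rose by a log2 fold change of 1.17 ± 0.28 (SE), adjusted p = 4.1e-04, with its libraries apart, and was the single member that was higher after median centring, at 0.59 (adjusted p = 0.014, limma). PCDHAC2 rose by 0.77 ± 0.25 (SE), adjusted p = 0.009 and PCDHGC3 by 0.63 ± 0.26 (SE), adjusted p = 0.037, and median-centred they were at 0.19 and 0.06 (adjusted p = 0.59 and 0.89, limma). PCDHB2, the single PCDHB window tested, was at 0.18 ± 0.25 (SE), adjusted p = 0.52.

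Between PEA1 and PEA2 the windows moved in both directions. Of 25 members tested, 2 met the strict thresholds (8.0%, against 12.7% of all windows), 5 were higher (20%, against 43.0%) and 4 lower (16.0%, against 21.4%). Of these, 1 higher member was in the table through PEA2 alone and 3 lower ones through PEA1 alone. The libraries were apart in 11 members (44%), against 66.3%. The median was -0.01 for the members and 0.31 for all windows, and after median centring 5 members were higher and 12 lower. PCDHGA7 rose by 2.25 ± 0.30 (SE), adjusted p = 4.5e-13, and the second PCDHA intron window by 2.14 ± 0.24 (SE), adjusted p = 7.9e-18, the 2 members past the strict thresholds. After median centring both were below them, at 1.88 and 1.77. The member past them was then the far window of the PCDHB8 first exon, at -2.07, which was in the table through PEA1 alone. With a pseudocount of 0.5 in place of 0.1, 0 members passed them, and without PEA1 replicate 1, PEA1 replicate 3 or PEA2 replicate 2, 1 did. The last PCDHA intron window rose by 1.73 ± 0.23 (SE), adjusted p = 2.5e-13. The 3 PCDHB8 windows were lower in PEA2, at -0.57 ± 0.23 (SE), adjusted p = 0.022 at the start and at -1.70 ± 0.25 (SE) at the far end of the first exon. PCDHA13 was lower too, at -1.24 ± 0.26 (SE). PCDHB2 was under the minimum, and in the fit without a minimum it was at -2.40 ± 0.31 (SE, limma adjusted p = 2.8e-11), with the share of reads in PEA1 7.3 times that in PEA2 (95% counting interval 4.03 to 14.5). The C-type starts PCDHAC1, PCDHAC2 and PCDHGC3 were at -0.24, -0.08 and -0.01 and were not called (limma adjusted p = 0.37, 0.77 and 0.97). After median centring all 3 were lower in PEA2, at -0.61, -0.45 and -0.38 (limma adjusted p = 6.8e-05, 0.0028 and 0.016), and edgeR called them lower as well (adjusted p = 3.0e-05, 0.0014 and 0.0072). By subcluster, 2 of 10 PCDHA windows were higher and 1 lower, 0 of 5 PCDHB windows higher and 3 lower, and 3 of 10 PCDHG windows higher and 0 lower.

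Between PEO1 and PEO4 the members that changed were lower in PEO4. Of 28 members tested, 2 met the strict thresholds (7.14%, against 8.49% of all windows), 0 were higher by limma (against 21.9%) and 17 were lower (60.7%, against 45.8%). Both members past the strict thresholds and 3 of the 17 lower ones were in the table through PEO1 alone. The libraries were apart in 17 members (60.7%), all lower in PEO4, against 69.3% in either direction. The median was -0.58 for the members and -0.30 for all windows, and after median centring 8 members were lower and 0 higher. Over the 5 Mb bin that holds the clusters, members included, the median was -0.55, and over chromosome 5 it was -0.52. PCDHGC5 fell the most, by 2.91 ± 0.32 (SE) (median-centred -2.57), and the window in the gap before PCDHAC1 was at -2.08 ± 0.31 (SE) (median-centred -1.74). The first PCDHA intron window was at -1.33 ± 0.20 (SE), adjusted p = 4.8e-07, and PCDHGA7, which was higher in PEA2 than in PEA1, was at -1.13 ± 0.24 (SE), adjusted p = 7.0e-05. The broadly open starts also fell, PCDHAC1 at -0.75 ± 0.14 (SE), adjusted p = 1.7e-05, PCDHAC2 at -0.84 ± 0.14 (SE), adjusted p = 3.7e-06 and PCDHGC3 at -0.57 ± 0.14 (SE), adjusted p = 3.8e-04. PCDHGC3 lost its call after median centring (-0.23, limma adjusted p = 0.12), whereas PCDHAC1 and PCDHAC2, at -0.41 and -0.49, kept theirs. With the median of that 5 Mb bin removed, PCDHAC1, PCDHAC2 and PCDHGC3 were at -0.20, -0.29 and -0.03. None was then called (limma adjusted p = 0.24, 0.094 and 0.90). PCDHA12 and PCDHGB4 were at -0.01 and -0.12 and were not called (limma adjusted p = 0.96 and 0.63). At an unadjusted p under 0.05, 0 members were higher and 18 lower, and edgeR called 0 higher and 10 lower. Without PEO1 replicate 3 or PEO4 replicate 3, 1 member passed the strict thresholds. By subcluster, 7 of 10 PCDHA, 3 of 4 PCDHB and 7 of 14 PCDHG windows tested were lower.

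**Figure D4:**
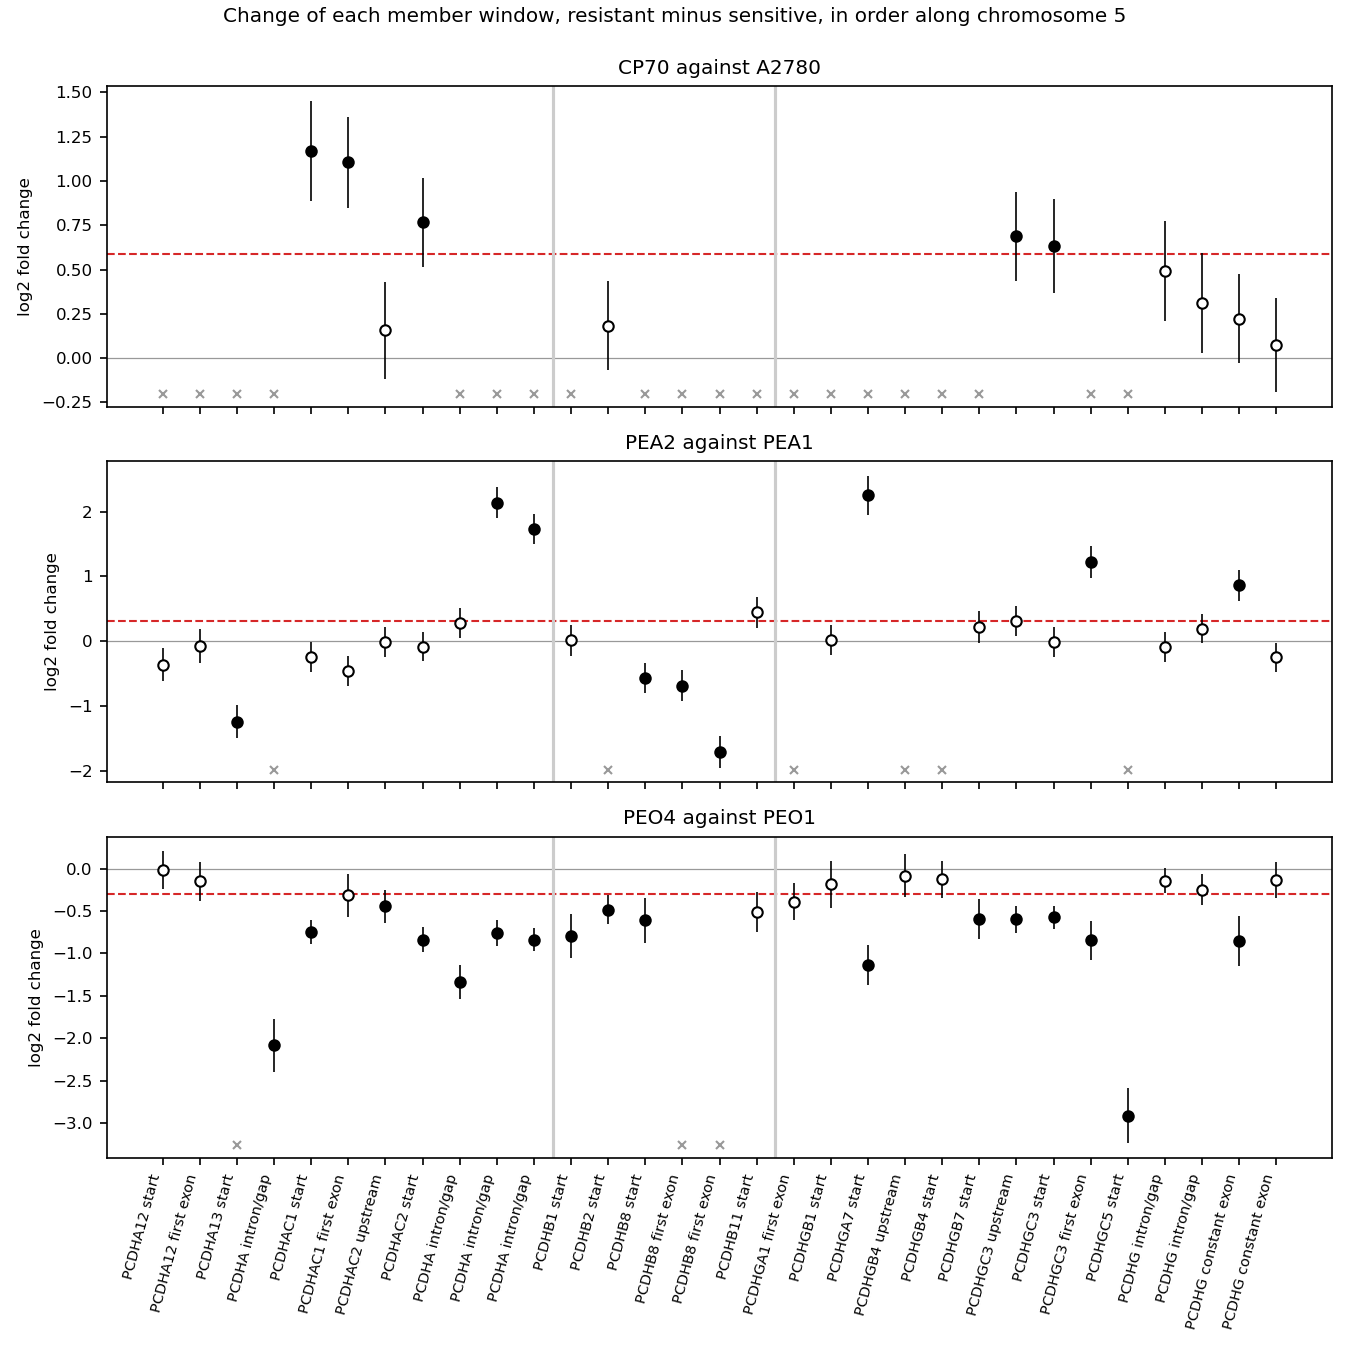
Log2 fold change of the resistant over the sensitive line for each member window in genomic order, 1 panel per pair, with the SE as error bars (filled points, adjusted p under 0.05; open points, not called; grey crosses at the foot, not tested; red dashed line, median of all windows tested; grey vertical lines separate PCDHA, PCDHB and PCDHG). The tested members of the PEO pair all lie below 0, and those of the PEA pair range from -1.70 to 2.25.

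The fold changes of the pairs were then compared with each other in 1 limma fit of all 18 libraries, with a call at an absolute log2 difference over 1 and an adjusted p under 0.05 among 25 members tested. The PEA and PEO pairs differed in 8 members (32%, against 53.7% of all windows), the A2780 and PEA pairs in 7 (28%, against 45.1%), and the A2780 and PEO pairs in 12 (48.0%, against 36.1%), of which 5 were called after median centring. The first 2 counts were 8 and 7 after median centring. PCDHGA7 and PCDHGC5 had the largest difference between the PEA and PEO pairs, at 3.38 ± 0.41 and 3.38 ± 0.43 (SE), with a limma adjusted p of 3.3e-10 for PCDHGA7. PCDHGC5 is counted in both comparisons with the PEO pair, although it was in the table through PEO1 alone, which favours a large difference there.

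Each line was also set against the mean of the other 5 in that fit, with the same thresholds, and the share of all windows called in that direction is given in parentheses. A2780 was lower in 20 of 25 members (54.5%) and higher in 0 (0.415%), and CP70 was lower in 14 (35.5%) and higher in 0 (2.44%). PEA1 was higher in 3 (5.55%) and lower in 2 (18.5%), and PEA2 was higher in 7 (20.2%) and lower in 1 (14.4%). PEO1 was higher in 15 (59.5%) and lower in 0 (4.72%), and PEO4 was higher in 5 (45.8%) and lower in 1 (3.96%). The median over all windows ranged from -1.06 in A2780 to 1.23 in PEO1, and the counts changed after median centring, with the share of all windows again in parentheses. In PEO1 3 members were then higher (16.3%) and 3 lower (17.4%). In PEO4 0 members were then higher (15.5%) and 4 lower (14%). In PEA1 8 members were then higher (8.82%) and 1 lower (11.4%). In PEA2 5 members were then higher (15.9%) and 1 lower (19.9%). In A2780 2 members were then higher (7.73%) and 3 lower (5.31%). In CP70 0 members were then higher (11%) and 4 lower (14.9%). PCDHB8 was higher in PEA1 by 2.28 ± 0.21 (SE), adjusted p = 8.3e-14 (median-centred 2.53) and lower in CP70, at -3.25 ± 0.21 (SE), adjusted p = 1.7e-20 (median-centred -2.52). PCDHB2 was lower in PEA2, at -2.83 ± 0.19 (SE), adjusted p = 3.1e-19 (median-centred -3.03). PCDHGC5, in the table through PEO1 alone, was at 2.23 ± 0.23 (SE) in PEO1 and at -1.26 ± 0.23 (SE) in PEO4 (median-centred 1.05 and -2.04).

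Other genes of the pathway were read at their start windows. Of 22 known regulators of the clusters, among them CTCF, cohesin subunits and DNA methyltransferases, 21 had a window. In CP70 12 of the 21 were higher than in A2780, where 47.5% of all windows were, and 0 lower by limma (2.29%), with a median of 0.75 against 0.59 for all windows. In PEA2 0 were higher than in PEA1 (43.0% of all windows) and 7 lower (21.4%), with a median of -0.33 against 0.31. The starts of neighbouring genes, given below, had a median of -0.38 there. In PEO4 4 were higher than in PEO1 (21.9%) and 4 lower (45.8%), with a median of 0.03 against -0.30. SMCHD1, a chromatin protein known to repress the clusters, was lower in PEA2 at -1.55 ± 0.23 (SE), adjusted p = 5.8e-11, and SETDB1, a histone H3 methyltransferase, at -1.58 ± 0.23 (SE), adjusted p = 8.0e-11. Of 12 non-clustered protocadherins 9 had a window. In PEO4 0 of them were higher (21.9% of all windows) and 8 lower (45.8%), in PEA2 3 were higher (43.0%) and 3 lower (21.4%), and in CP70 0 of 6 tested were higher (47.5%) and 1 lower (2.29%). Among them PCDH15 was higher in PEA2 by 2.22 ± 0.30 (SE), adjusted p = 2.0e-12. Of 26 start windows of genes within 1 Mb of the clusters, against the same shares of all windows, 1 was higher and 9 lower in PEO4, 1 higher and 8 lower in PEA2, and 10 higher and 0 lower of 24 tested in CP70. Their medians were -0.14 in PEO4, -0.38 in PEA2 and 0.60 in CP70. The shares and medians of all windows are not those of starts alone, and whether the regulators differ from other starts was not tested.

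Of the markers of ovarian and serous epithelium 7 of 8 had a start window. The means of PAX8, WT1 and KRT8 were higher in each of the 4 serous lines than in A2780 and CP70, and over the library median this held for PAX8 alone. PAX8, a transcription factor of serous tumours, averaged 0.61 FPKM in A2780, 0.9 in CP70 and 2.47 to 7.9 in the serous lines. The other 4 did not separate the lines in this way. SOX17 averaged 0.721 and 0.661 FPKM in PEO1 and PEO4, against 0.896 in A2780 and 0.939 in CP70, and EPCAM averaged 1.1 in PEA1, against 1.18 in CP70. Start windows were present for 0 of 3 blood markers, 1 of 4 fibroblast markers and 3 of 4 neuronal markers. An open start does not show expression.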

How the data were processed

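ATAC-seq libraries (18, 3 per line) were deposited as 1 table of FPKM values in windows. According to the study's methods, the authors marked duplicates with Picard and aligned 100-base paired reads to hg19 with Bowtie2. They kept unique alignments outside blacklisted and mitochondrial sequence, counted reads with featureCounts in 1 kb windows, and scaled with edgeR. Adjacent deposited windows started 900 bases apart. Versions and a Tn5 shift are not given in the sources used here. The deposited values in FPKM were whole reads divided by the library total and by 1 common window length, so they are RPM on another scale, and reads could be recovered within a tolerance of 0.01 for 100% of values. Library totals were 8963079 to 60435027 reads, so a window at 1 FPKM held fewest reads in PEO1.

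Members and gene lists were chosen with earlier results of these data known. Windows were assigned to GENCODE release 44 genes by any overlap with the gene from 1 kb upstream. Named windows were, in each subcluster, the 3 starts with the highest mean, the C-type starts, up to 3 windows per pair and direction with the largest fold change, those past the strict thresholds and the highest window of each line. Other windows were described after their values were seen. Tests used limma 3.58.1 (trended variance) under R 4.3.3, with Benjamini-Hochberg adjustment over all windows tested, and were tested on simulated data. Tables were made with pandas 2.3.3 in Python 3.11.15. Alternatives were another pseudocount, another minimum, median centring, quantile normalization, subtracting the bin median (bins of 5 Mb), edgeR 4.0.16 on the recovered reads, a replicate block, assignment by window centre and leaving out each library. Counting intervals of windows with few reads and 3 sequence strings were added after seeing the data. Replicate libraries differed by more than sampling noise (chi-square per window 1.07 to 2.10). The correlation of deviations between libraries of the same number was -0.41 to 0.04, and the numbers were not taken to pair samples. The promoter sequence of 1 gene is not reported here.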

Additional observations from a re-analysis of the deposited data

Results flagged for a closer look

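Among the windows chosen by the naming rule of the methods, the fold changes of the resistant over the sensitive line differed between pairs in 21 cases by the limma contrast of all 18 libraries, each value being a difference of log2 fold changes with its SE. Between the PEA and PEO pairs the PEA fold change was the higher at PCDHGA7 (3.38 ± 0.41), PCDHGC5 (3.38 ± 0.43) and the 3 PCDHA intron windows (1.62 ± 0.34, 2.90 ± 0.35 and 2.57 ± 0.33 in genomic order), and the lower at PCDHB2 (-1.92 ± 0.34). After median centring the first intron window was at 0.908, below the threshold of 1, and the other 5 stayed above 1 in size. PCDHGC5 was in the table through PEO1 alone. At PCDHGA7 and at the second and last intron windows the PEA fold change was above 0 and the PEO one below 0. At the first intron window the PEA fold change was not called in its pair (0.28 ± 0.23, limma adjusted p = 0.27). After median centring it was -0.09.

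Between the A2780 and PEA pairs the A2780 fold change was the higher at PCDHB2 (2.59 ± 0.34), the start of PCDHAC1 (1.41 ± 0.28) and its first exon (1.56 ± 0.35), and the lower at PCDHGA7 (-2.18 ± 0.41) and the second and last PCDHA intron windows (-1.62 ± 0.35 and -1.36 ± 0.33).

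Between the A2780 and PEO pairs the A2780 fold change was the higher at PCDHGC5 (3.52 ± 0.43), PCDHAC1 (1.92 ± 0.28 at the start and 1.42 ± 0.35 at the first exon), PCDHAC2 (1.60 ± 0.28), PCDHGC3 (1.21 ± 0.30), PCDHGA7 (1.2 ± 0.41) and the 3 PCDHA intron windows (1.76 ± 0.34, 1.27 ± 0.35 and 1.22 ± 0.33). After median centring, the start of PCDHAC1, PCDHGC5 and the first intron window kept a difference above 1, and the other 6 of these 9 values fell below 1. Here too, PCDHGC5 was in the table through PEO1 alone.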

How the results depend on the processing

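The counts of called members depended on the scaling, the pseudocount and the minimum, and the cause was not tested. For CP70 against A2780, the 5 higher members became 2 with a minimum of 2 FPKM, 1 with median centring, quantile normalization or edgeR, and 0 with the median of each 5 Mb bin removed, and the 0 lower members became 1 without a minimum, with median centring, with quantile normalization or with edgeR. For PEA2 against PEA1, the 2 members past the strict thresholds became 0 with a pseudocount of 0.5 or 1 and 1 with a minimum of 2 FPKM (the second PCDHA intron window) or bin removal (PCDHGA7). With median centring or quantile normalization neither passed. The 1 member that did was the far window of the PCDHB8 first exon, which was lower and was in the table through PEA1 alone. With edgeR the 2 were PCDHGA7 and that exon window, and without a minimum PCDHB2 was added, for 3. The 5 higher and 4 lower members became 2 and 2 with a minimum of 2 FPKM, and the lower count was 12 with median centring, 9 with quantile normalization and 13 with edgeR. For PEO4 against PEO1, the 2 members past the strict thresholds became 1, PCDHGC5, with a pseudocount of 0.5, median centring, quantile normalization, bin removal or edgeR, and 0 with a pseudocount of 1 or a minimum of 2 FPKM. The 17 lower members became 9 with a minimum of 2 FPKM or quantile normalization, 8 with median centring, 4 with bin removal and 10 with edgeR, and 2 members became higher with bin removal. PCDHB2 changed direction in that pair with bin removal, to 0.0631 on the log2 scale.

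For single lines against the other 5, a pseudocount of 1 left 10 lower members in A2780, 6 in CP70 and 0 in PEA1 and PEO4, and 1 higher in PEA2, 5 in PEO1 and 0 in PEO4. Median centring gave 2 higher and 3 lower in A2780, 4 lower in CP70, 8 higher and 1 lower in PEA1, 3 higher and 3 lower in PEO1, and 0 higher and 4 lower in PEO4. Bin removal gave 2 higher and 2 lower in A2780, 4 higher and 4 lower in CP70, 2 higher in PEA2, 3 higher and 3 lower in PEO1, and 0 higher and 2 lower in PEO4. Without a minimum there were 5 higher in PEA1, 3 lower in PEA2, 2 lower in PEO1, and 8 higher and 2 lower in PEO4. The 12 differences between the A2780 and PEO pairs became 4 with a pseudocount of 1 and 5 with median centring or bin removal.

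Scaled by the library median, the subcluster means in FPKM were, for PCDHA, 2.34 in PEO1, 1.76 in PEO4, 3.78 in PEA1, 2.87 in PEA2, 1.77 in A2780 and 2.44 in CP70. For PCDHB they were 1.07 in PEO1, 0.912 in PEO4, 3.26 in PEA1, 1.45 in PEA2, 1.25 in A2780 and 1.00 in CP70. For PCDHG they were 1.99 in PEO1, 1.77 in PEO4, 2.84 in PEA1, 2.27 in PEA2, 2.03 in A2780 and 2.11 in CP70.

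Leaving out 1 library gave, for members past the strict thresholds, higher and lower, 1 to 2, 0 and 12 to 18 in PEO4, 1 to 2, 4 to 5 and 3 to 6 in PEA2, and 0, 3 to 5 and 0 in CP70 (3 without A2780 replicate 2 or 3). Against the other 5 lines the higher and lower counts were 13 to 15 and 0 in PEO1, 4 to 6 and 0 to 2 in PEO4, 2 to 5 and 1 to 2 in PEA1 (5 higher without PEA1 replicate 3), 7 to 9 and 1 in PEA2, 0 and 19 to 20 in A2780, and 0 and 12 to 13 in CP70. The PCDHA means ranged over 4.03 to 4.31 in PEO1, 2.72 to 3.13 in PEA1, 0.728 to 0.775 in A2780, 2.46 to 2.49 in PEO4, 2.98 to 3.33 in PEA2, 1.19 to 1.35 in CP70, the PCDHB means over 1.81 to 1.99 in PEO1, 2.34 to 2.57 in PEA1, 0.5 to 0.57 in A2780, 1.22 to 1.37 in PEO4, 1.48 to 1.72 in PEA2, 0.5 to 0.543 in CP70, and the PCDHG means over 3.49 to 3.71 in PEO1, 2.02 to 2.37 in PEA1, 0.847 to 0.913 in A2780, 2.38 to 2.66 in PEO4, 2.43 to 2.57 in PEA2, 1.06 to 1.15 in CP70.

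With the replicate number as a block, the members past the strict thresholds, higher and lower were 2, 0 and 18 in PEO4, 2, 5 and 4 in PEA2, and 0, 4 and 0 in CP70, and the differences between pairs were 8, 7 and 12. The labels share only a number, and the numbers were not taken as a pairing. Assignment by window centre kept 30 of the 31 members. Low depth in PEO1 and few reads in closed windows of CP70 limit what small differences could be seen.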

Other observations

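Outside the genes, the window chr5:140419800-140420800, between PCDHA and PCDHB, averaged 9.06 FPKM in PEO4, 8.07 in PEO1, 4.09 in PEA1, 2.86 in CP70, 2.82 in PEA2 and 2.22 in A2780. In the PEA pair the median log2 fold change of the windows tested was 0.87 over chromosome 5 and 0.21 over the 5 Mb bin that holds the clusters.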
